A study of Mus musculus with 2 samples.

Results

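The 10 genes described here encode the transcription factors of the nuclear factor I (NFI) family, Nfia, Nfib, Nfic and Nfix, and 6 of the regulatory factor X (RFX) family, Rfx1, Rfx2, Rfx3, Rfx4, Rfx5 and Rfx7. They are 10 of the 21911 protein-coding genes of the mouse annotation (GENCODE M21, assembly mm10). They were selected on family membership with earlier results of these peak lists known, among them how often NFI and RFX consensus motifs occurred in peaks, so every value below is a description and no test was made. Each gene was read as its gene body plus 50 kb on each side, called its window. DNase-seq, which cuts nuclear DNA with DNase I and sequences the cut ends to find accessible chromatin, was done on MN1, an immortalized line from B6NCrl mice. The labels give 1 group of 2 biological replicates with 1 library each, and name no tissue, cell type, treatment, age or sex. They list the HiSeq 2500 and NextSeq 500 instruments for replicate 2 and no instrument for replicate 1. With no second condition, the comparisons are between the 2 libraries, between the 10 genes, and between these genes and all genes.

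NFI proteins bind DNA as dimers, on a palindrome of TTGGC and its reverse complement. They act in the development of brain, lung, tooth and muscle, and in brain they promote the step from dividing progenitor to glial cell. RFX proteins share a winged-helix DNA-binding domain that reads the X-box, an inverted repeat found at the promoters of many genes of cilium assembly and, as a related form, of MHC class II genes. Accessible chromatin at a gene is not a measure of its RNA, and no RNA was measured in the data used here.

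The 2 peak lists held 170286 and 162691 distinct peaks on the main chromosomes for replicates 1 and 2, nearly all 150 bp wide. Each peak carries the authors' score, from 1 to a ceiling of 150, which has no stated normalization. The median score was 49 in replicate 1 and 39 in replicate 2, so a score is given below with its percentile, the percent of peaks in the same list with that score or a lower one. Read depth is unknown, and the spread between the 2 libraries may hold technical as well as biological differences.

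The sequences that match the 2 families' own motifs come first. They are matches of letters only, since no protein binding was measured. The full NFI consensus was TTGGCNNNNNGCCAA and the full RFX consensus was GTTNCCNNGGNAAC, each searched on the plus and minus strands (both strands) up to 75 bp from a peak's centre. Among the 334 peaks of replicate 1 in the 10 windows that overlap a peak of replicate 2, called shared peaks, 1 held the full NFI consensus and 2 held the full RFX consensus. These are 0.299% and 0.599% of the 334. Of all 114222 shared peaks, 225 (0.197%) held the NFI consensus and 461 (0.404%) the RFX consensus, so such counts are small in both sets. All sequences are the mm10 plus strand, 5′ to 3′, in lower case with the consensus match in capitals. In the order printed, these 3 peaks lie at chr10:81382096-81382245 in the Nfic window, chr8:84104936-84105085 in the Rfx1 window and chr9:72672476-72672625 in the Rfx7 window.
NFI match, Nfic window: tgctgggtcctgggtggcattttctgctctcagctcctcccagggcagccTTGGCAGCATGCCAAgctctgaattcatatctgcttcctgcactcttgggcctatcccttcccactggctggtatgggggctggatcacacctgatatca
RFX match, Rfx1 window: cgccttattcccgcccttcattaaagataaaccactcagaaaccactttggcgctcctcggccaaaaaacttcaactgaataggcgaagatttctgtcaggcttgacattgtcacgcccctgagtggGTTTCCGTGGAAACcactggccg
RFX match, Rfx7 window: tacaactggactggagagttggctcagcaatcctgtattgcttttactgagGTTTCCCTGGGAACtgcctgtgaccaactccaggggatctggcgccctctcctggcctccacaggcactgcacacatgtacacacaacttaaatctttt

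None of these 3 peaks lies inside the body of the gene whose window holds it. The NFI peak is intergenic, 2257 bp from the nearest protein-coding start, that of Dohh, which encodes deoxyhypusine hydroxylase. It scored 95 in replicate 1 and 71 in replicate 2. The RFX peak in the Rfx1 window lies 243 bp from the start of Dcaf15, which encodes a substrate receptor of a ubiquitin ligase. It scored 147 and 144, close to the ceiling in both libraries. The RFX peak in the Rfx7 window lies in an intron of Nedd4, a ubiquitin ligase gene, 3871 bp from the nearest Nedd4 start, and scored 76 and 58.

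A further 4 matches appear from the peak positions of replicate 2. An intronic peak of Rfx3 is shared, with scores of 51 in replicate 1 and 25 in replicate 2, but its full RFX consensus falls in the window of replicate 2 and outside that of replicate 1. The others are peaks of replicate 2 alone: a full NFI consensus in an intron of Nfia (score 17), a full NFI consensus in an intron of Nfib (score 18), and a full RFX consensus in an exon of Celf5 45 bp from its start, in the Nfic window (score 37). Celf5 encodes an RNA-binding protein. In the order printed they lie at chr19:27907076-27907225, chr4:97876114-97876143, chr4:82379273-82379302 and chr10:81473032-81473061 (for all but the Rfx3 peak, 30 bases around the match).
RFX match, Rfx3 intron: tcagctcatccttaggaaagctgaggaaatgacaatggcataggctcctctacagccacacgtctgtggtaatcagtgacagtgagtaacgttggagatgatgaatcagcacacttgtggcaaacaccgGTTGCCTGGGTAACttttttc
NFI match, Nfia intron: accgacgTTGGCAGGTGGCCAAtgcctttg
NFI match, Nfib intron: tataggcTTGGCTTGGTGCCAActgctgtg
RFX match, Celf5 exon: aagatgggGTTGCCATGGCAACgctgattc
All 4 score at most 51, and the motif in an Nfia, Nfib or Rfx3 intron was met in the peak list of 1 library only.

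A promoter peak was a peak centred within 1 kb of any annotated start site of the gene. All 4 NFI genes and 5 of the 6 RFX genes, 9 of 10 in all, had a promoter peak in both libraries, where the same was true of 58.9% of all protein-coding genes. Rfx4 had none in either library. The members had from 2 (Rfx1) to 15 (Rfx5) start sites, and all 21911 genes together had 93444. A gene with more start sites has more places where a peak counts. With the outermost start alone 7 members had a promoter peak in both libraries, and no share of all genes is given for that setting. The highest CpG observed/expected ratio at a start site ranged from 0.646 at Rfx4 and 0.721 at Rfx5 to 1.12 at Nfix, beside a median of 0.627 over all genes. Rfx4, close to that median, had the lowest ratio of the 10 as well as no promoter peak. At the outermost start alone the ratio was 0.236 for Nfib and 0.325 for Nfic.

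**Figure D1:**
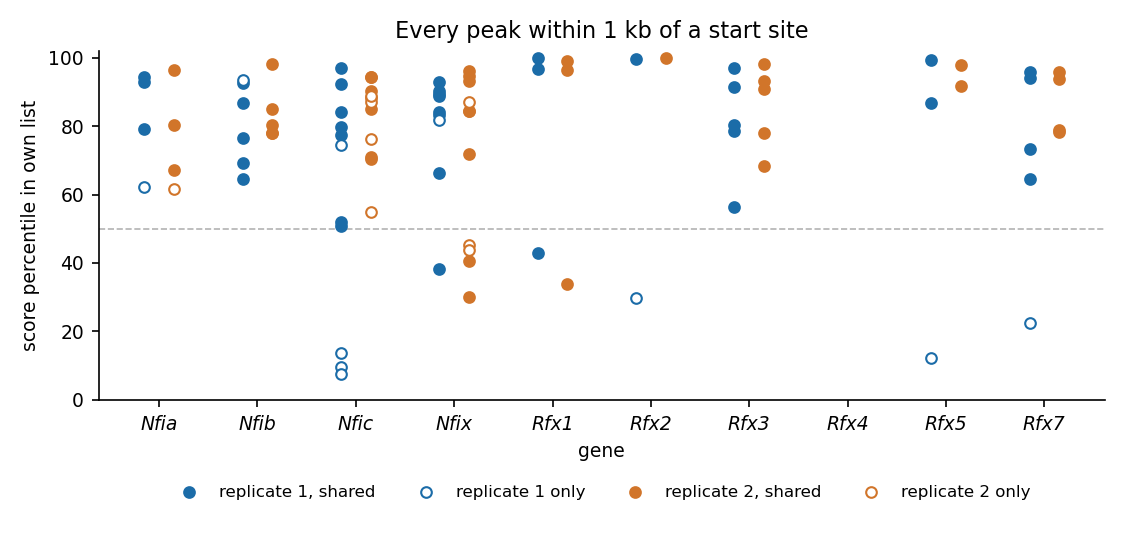
Score percentile within its own list (y axis) of every peak centred within 1 kb of a start site, for each gene (x axis). Points are single peaks, replicate 1 in blue and replicate 2 in orange, filled where the peak overlaps one of the other library. The highest peak of each of the 9 genes with promoter peaks lies above percentile 92 in both libraries, and Rfx4 has no point.

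Nfia, which supports astrocyte formation and growth of the corpus callosum, had 4 promoter peaks in each library, of which 3 were shared. These lie around its outermost start site at chr4 97772734. The highest scored 124 in replicate 1 and 131 in replicate 2, and lies 403 bp upstream, within an intron of the neighbouring gene E130114P18Rik. The 5 start sites about 5 kb further inside, between 4874 and 5100 bp from the outermost, had no peak within 1 kb in either library. At the Nfia-206 start, 138299 bp inside the gene, each library had 1 peak (score 60 in replicate 1 and 50 in replicate 2). These peaks did not overlap each other, but hotspots of both libraries covered that start.

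Nfib, needed for lung maturation and forebrain development, had 6 and 5 promoter peaks in replicates 1 and 2. Its outermost start, the start of Nfib-212 at chr4 82705750, had none in either library. The peaks instead lay at the cluster of starts between 82505308 and 82505779 (199971 to 200442 bp inside the gene), where 1 hotspot of 3117 bp in replicate 1 and 3269 bp in replicate 2 spans the cluster. A hotspot is a broader enriched region that the authors called with a q-value, and this one was the widest in the Nfib window in both libraries. The highest shared peak there scored 118 and 137, and lies 712 bp upstream of the nearest start. A peak with a score of 121 in replicate 1 had no overlapping peak in replicate 2.

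Nfic, known for tooth root formation, had 11 promoter peaks in each library, 7 of them shared. As at Nfib, the outermost start (chr10 81455635) had no peak. Shared peaks lay at the starts at 81407641, at 81427114 to 81427187, and at 81431005. The highest, 90 bp upstream of the start at 81407641, scored 134 in replicate 1 and 122 in replicate 2.

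Nfix, which acts in neural progenitors and in fetal muscle, had 9 and 11 promoter peaks. Here the outermost start cluster at chr8 84800344 and the starts about 26 kb inside, at 84773396 and 84774369, both had peaks in both libraries. The highest peak at the inner starts scored 119 and 129. At the outer starts the highest score was 108 in replicate 1 and 124 in replicate 2, at different peaks. Shared promoter peaks thus lay at the outermost start sites of Nfia, at inner ones of Nfib and Nfic, and at both in Nfix.

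Rfx1, the founding member of the family and broadly expressed, had 3 promoter peaks in each library, all shared, and the highest scored 147 and 141. Rfx2, which drives ciliary and spermatid genes, had 2 peaks in replicate 1 and 1 in replicate 2. Its single shared peak scored 145 and 149, at percentile 99.6 and 99.99, and was the highest promoter peak of any member in replicate 2, while that of Rfx1 was the highest in replicate 1. These 2 peaks are shown because they are the highest promoter peaks of the 10 genes, at their positions in replicate 1. The peak at Rfx1 is chr8:84066496-84066645 and that at Rfx2 is chr17:56831136-56831285. Capitals mark GGGCGG, the GC box of SP and KLF factors, and CCAAT, the box of NFY, on either strand.
Rfx1 promoter peak: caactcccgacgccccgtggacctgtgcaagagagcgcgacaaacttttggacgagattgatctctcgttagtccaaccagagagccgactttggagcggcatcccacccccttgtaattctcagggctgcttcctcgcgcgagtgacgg
Rfx2 promoter peak: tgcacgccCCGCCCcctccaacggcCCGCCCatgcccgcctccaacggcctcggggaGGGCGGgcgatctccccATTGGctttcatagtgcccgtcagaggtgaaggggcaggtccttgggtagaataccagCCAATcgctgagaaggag
The Rfx2 peak holds 5 matches of these 2 motifs and the Rfx1 peak, at this position, none. The peak of replicate 2 that overlaps it, chr8:84066636-84066785, shares only its edge and does hold CCAAT. The motif content of the printed Rfx1 peak thus depends on which library's position is read. Another shared promoter peak of Rfx1, with scores of 133 and 131, holds GGGCGG and CCAAT in both libraries. Over all 30973 shared promoter peaks, 35.3% hold GGGCGG and 20.1% hold CCAAT. The start of a noncoding antisense gene, C330011M18Rik, lies 716 bp from the printed Rfx1 peak, and that peak cannot be assigned to one of the 2 genes.

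Rfx3, which directs ciliary genes and pancreatic endocrine cell formation, had 5 promoter peaks in each library, all shared, at its outermost start sites. The highest scored 134 and 137. Rfx5, the DNA-binding subunit of the complex that reads the X-box of MHC class II promoters, had 3 and 2 promoter peaks, and the highest scored 144 and 136. Rfx7, known for its part in lymphoid cell maintenance, had 5 and 4, with a highest score of 130 in replicate 1 and 128 in replicate 2, at neighbouring peaks. The highest peaks of these 3 genes were above percentile 95 in both libraries.

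Rfx4, expressed in brain and testis and needed for dorsal midline brain structures, differed from the other nine. None of its 4 annotated start sites had a peak centre within 1 kb in either library. The nearest shared peaks were outside that limit, 1927 bp upstream of the start at 84762238 (scores 47 and 37) and 1565 bp downstream of the start at 84834746 (scores 84 and 74). Just inside the limit among the other genes were a shared peak of Nfib at 937 bp and one of Nfix at 907 bp. Rfx4 was not devoid of accessible sites: 17 shared peaks lay in its window, 11 of them in the gene body. The highest outside promoters scored 111 and 108, in an intron 14583 bp downstream of the nearest Rfx4 start. Its sequence is chr10:84852656-84852805, and it is all in lower case because neither short family motif (TTGGCA or GTTGCC) occurs in it.
Rfx4 intron peak: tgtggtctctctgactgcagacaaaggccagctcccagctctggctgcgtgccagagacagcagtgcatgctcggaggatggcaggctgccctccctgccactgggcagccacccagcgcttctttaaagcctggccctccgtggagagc
The 2 highest-scoring shared peaks in the Rfx4 window belong to another promoter, that of Ric8b, which encodes a chaperone of G protein subunits. They scored 142 and 120 in replicate 1 and 135 and 133 in replicate 2.

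Over the whole windows, the members had a median of 25 shared peaks, beside 11 for all protein-coding genes. The median of the 4 NFI genes was 59.5 and that of the 6 RFX genes was 18.5. Windows of long genes are larger, so counts were also taken per 100 kb of window: the median was 13.6 for the 10 genes and 7.77 for all genes, 22.7 for the NFI genes and 13.6 for the RFX genes. The NFI genes did not stand together on this scale: Nfia at 6.95 and Nfib at 11.1 were both below 4 of the 6 RFX genes.

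**Figure D2:**
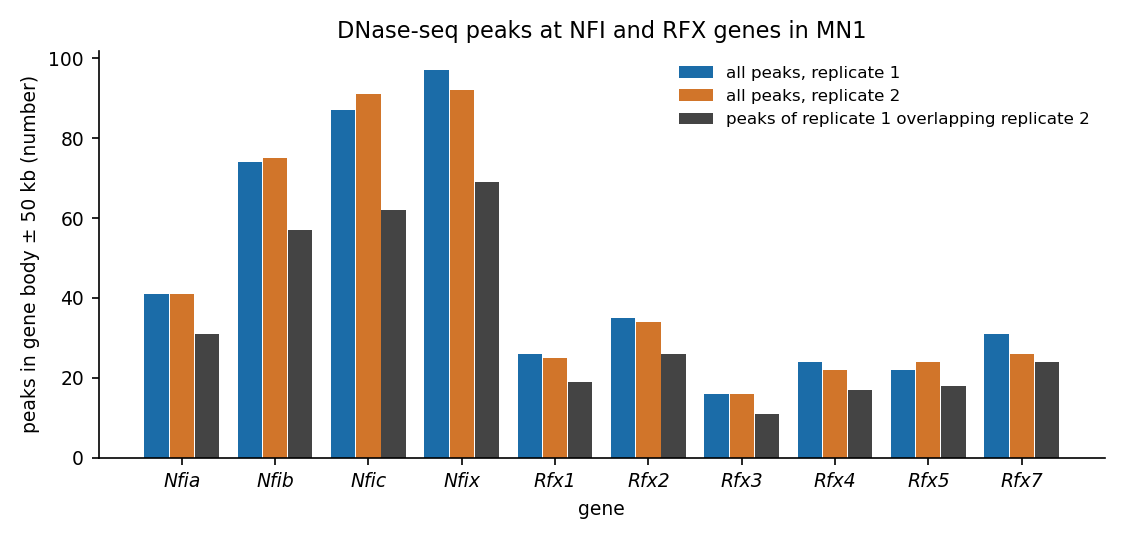
Number of peaks in the gene body plus 50 kb on each side (y axis) for each gene (x axis), in replicate 1, in replicate 2, and peaks of replicate 1 that overlap a peak of replicate 2. Nfix, Nfic and Nfib have the tallest bars, with 97, 87 and 74 peaks in replicate 1, and Rfx3 the shortest, with 16.

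Nfix had 97 peaks in replicate 1 and 92 in replicate 2, of which 69 were shared, and Nfic had 87 and 91, of which 62 were shared. Per 100 kb these were 34.4 and 38.9 shared peaks, at percentiles 98.5 and 99.3 of all genes. The Nfib window, the longest at 515578 bp, had 74 and 75 peaks, 57 of them shared, and 11.1 per 100 kb. Nfia, in a window of 446141 bp, had 41 peaks in each library, 31 shared, and 6.95 per 100 kb, at percentile 46.5. Nfic and Nfix therefore stand near the top of the annotation in density, and Nfia near its middle.

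The neighbourhoods of the dense genes were also rich in other genes. The Nfic window holds start sites of 11 other protein-coding genes and the Nfix window of 9, while those of Nfib and Rfx3 hold none. Peaks at the promoters of other genes numbered 26 of 87 in the Nfic window and 29 of 97 in the Nfix window in replicate 1. Without such peaks, Nfic kept 45 shared peaks and Nfix 49. Among genes with promoter peaks in both libraries and a window length within 10%, 1684 of 1691 had fewer than Nfic counted this way, and 891 of 895 had fewer than Nfix. Nfib, with all its 57 shared peaks outside the promoters of other genes, exceeded 77 of 83 such genes. Rfx3 was at the low end, with 11 shared peaks and 45 of 204 genes below it. The other members with promoter peaks lay between. Rfx2 exceeded 1611 of 1887 such genes, Rfx5 3840 of 5434 and Rfx7 684 of 986. Nfia exceeded 73 of 108 and Rfx1 2362 of 3739.

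Among the RFX genes, Rfx2 had 35 and 34 peaks (26 shared), Rfx7 31 and 26 (24 shared), Rfx1 26 and 25 (19 shared), Rfx5 22 and 24 (18 shared), Rfx4 24 and 22 (17 shared) and Rfx3 16 and 16 (11 shared). Per 100 kb the order changed to Rfx2 at 16.8, Rfx5 at 16.7, Rfx1 at 14.6, Rfx7 at 12.6, Rfx4 at 6.79 and Rfx3 at 3.15. The numbers of peaks differed between the libraries by at most 5, the difference at Nfix and Rfx7, so the counts of Rfx4 and Rfx5, for example, are no further apart than the libraries themselves differ. Rfx1 and Nfix both lie on chromosome 8, with 603 kb between the gene bodies, and their windows do not overlap.

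Of all 334 shared peaks, 38 lay at the members' own promoters, 58 at promoters of other genes and 146 in introns. Introns held 112 of the 219 shared peaks in the NFI windows and 34 of the 115 in the RFX windows. Gene bodies ran from 59450 bp (Nfic) to 415578 bp (Nfib) in the NFI genes. In the RFX genes they ran from 7487 bp (Rfx5) to 249446 bp (Rfx3). The intron counts were not adjusted for length, so they do not compare the families. Upstream flanks held 47 and downstream flanks 42.

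**Figure D3:**
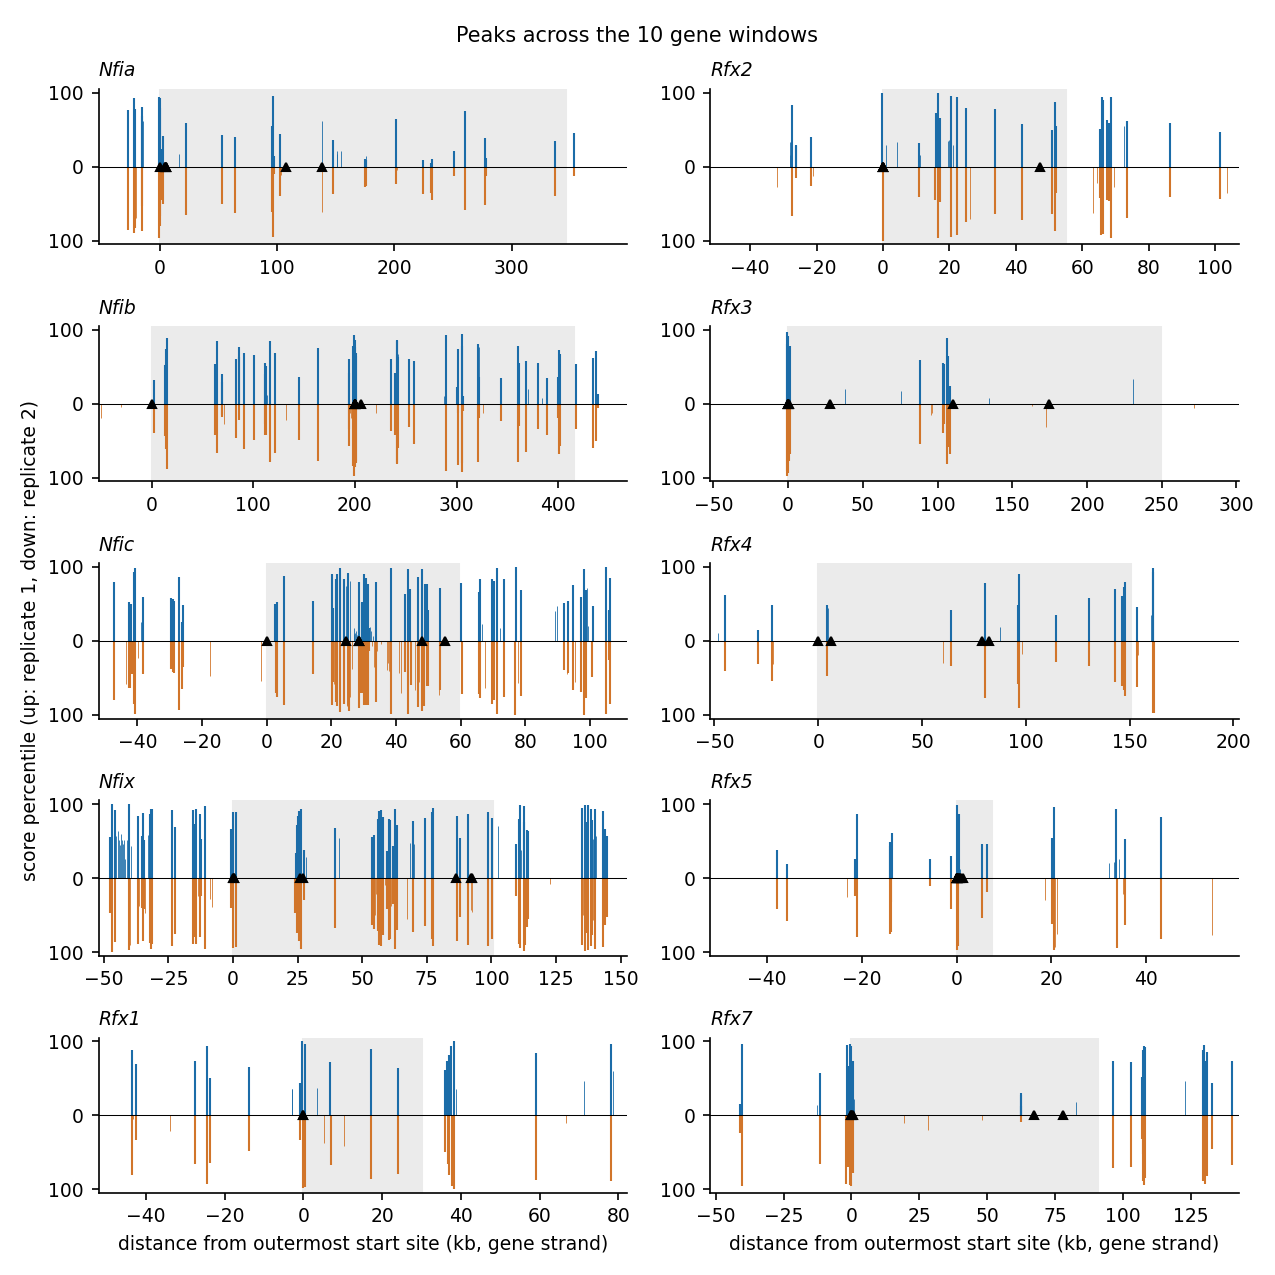
Score percentile of each peak (y axis, replicate 1 upward in blue, replicate 2 downward in orange) against distance in kb from the outermost start site along the gene's strand (x axis), 1 panel per gene. Thick lines are shared peaks and thin lines peaks of 1 library, grey marks the gene body and triangles mark annotated start sites. The tall peaks of Nfib stand at its cluster of inner start sites, and no peak stands at the triangles of Rfx4.

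Outside promoters, the highest shared peak of Nfia lies in an intron at chr4:97868976-97869125, 96317 bp from the outermost start, and scored 131 and 126. The hotspot over it was the widest of the Nfia window in both libraries, 1880 bp in replicate 1 and 1120 bp in replicate 2. In Nfib, the highest lies in an intron 305499 bp inside the outermost start and scored 126 and 115. In Nfic the 3 highest were all intronic, with scores of 137 to 140 in replicate 1 and 132 to 142 in replicate 2, and the first of them lies 734 bp from the start of the microRNA gene Mir1191b. In Rfx3 the highest lies in an intron 106275 bp from the outermost start and scored 107 and 84. Of the RFX genes, Rfx2 had the highest intronic peak, at percentile 99.2 in replicate 1 and 97.0 in replicate 2.

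That Rfx2 peak and an upstream peak of Nfix are shown because they hold the short motifs of the families, TTGGCA for NFI and GTTGCC for RFX, on either strand and marked in capitals. The 2 short motifs can overlap, since TTGGCAAC contains both. The Rfx2 peak, chr17:56814456-56814605, lies 16482 bp inside the gene and scored 143 and 133. The Nfix peak, chr8:84811036-84811185, lies 10767 bp upstream and scored 138 and 129.
Rfx2 intron peak: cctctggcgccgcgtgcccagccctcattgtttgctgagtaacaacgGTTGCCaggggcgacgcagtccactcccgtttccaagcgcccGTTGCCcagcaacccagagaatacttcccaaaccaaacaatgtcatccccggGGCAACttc
Nfix upstream peak: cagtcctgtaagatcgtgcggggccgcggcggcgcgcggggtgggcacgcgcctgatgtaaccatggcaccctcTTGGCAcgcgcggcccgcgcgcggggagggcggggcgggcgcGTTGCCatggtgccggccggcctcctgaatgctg
The Rfx2 peak holds the short RFX motif 3 times, and the Nfix peak holds each short motif once.

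Across the 10 windows, the shares of peaks with a short motif were near those of all shared peaks. TTGGCA was in 11.7% of the members' shared peaks and 12.4% of all, and GTTGCC in 7.19% and 7.40%. The full consensus was rare everywhere: NFI was in 0.299% of the members' shared peaks and 0.197% of all 114222, RFX in 0.599% and 0.404%. None of the 38 shared peaks at the members' own promoters held either full consensus, which says only that these letters are not in those windows. Over all 30973 shared promoter peaks, 0.0710% held the NFI and 0.323% the RFX consensus, so 38 peaks would rarely hold one. By gene, GTTGCC was in 6 of 26 shared peaks at Rfx2, 5 of 57 at Nfib, 3 of 69 at Nfix and 0 of 18 at Rfx5. TTGGCA was in 11 of 57 at Nfib, 11 of 69 at Nfix and 0 of 11 at Rfx3. These genes were picked after their counts were seen, and 2 of the 6 Rfx2 peaks overlap and share sequence.

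How far the 2 libraries matched in the windows was read from all peaks of both lists. Of the 899 peaks in the windows, 73.7% overlapped a peak of the other library, beside 68.6% of all 332977 peaks. By gene and library the share ran from 67.0% (Nfic, replicate 2) to 88.5% (Rfx7, replicate 2). Peaks found in 1 library numbered 119 in replicate 1 and 117 in replicate 2, with median score percentiles of 33.3 and 29.9. These were below the 71.3 and 69.8 of shared peaks in the windows and above the 22.4 and 23.7 of all peaks found in 1 library. Hotspots called in the library without the peak covered 30 and 28 of them.

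Some unmatched peaks were bunched. Of the 28 peaks at Nfix found only in replicate 1, 12 fell in a 10 kb stretch, chr8:84839850-84849849, in the upstream flank, where replicate 2 had 5 peaks. The bunch at Nfic in replicate 1 counted 11 in the 10 kb stretch from 81422830, which covers its inner start sites, and that in replicate 2 counted 9 in the 10 kb stretch from 81414050. At Nfib, 7 peaks of replicate 2 alone lay within 10 kb of its inner promoter. At the other genes no 10 kb stretch held more than 4.

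Hotspots put the same genes at the ends. They covered 20.1% of the Nfic window in replicate 1 and 23.9% in replicate 2, and 21.1% and 19.5% of the Nfix window. They covered 1.58% and 1.53% of the Rfx3 window. Over the main chromosomes they covered 2.16% and 1.98%, so the Rfx3 window was the only one of the 10 below the genome's share.

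The known partners of the RFX proteins were read next, from short lists written with earlier results known. Rfxap and Rfxank, which join Rfx5 in the MHC class II complex, both had promoter peaks in both libraries, with best peaks above percentile 94. Ciita, the coactivator that this complex recruits, had 2 weak promoter peaks in replicate 1, the higher at percentile 6.53, and none in replicate 2. Of the remaining RFX genes, Rfx6, known from the endocrine pancreas, had no promoter peak and no shared peak in its window, and Rfx8 had no promoter peak and 13 shared peaks. Thus all 3 subunits of the Rfx5 complex had promoter peaks in both libraries and Ciita did not. Of all protein-coding genes 58.9% had such peaks, and so did 2 of the 5 partners and relatives read here. Beside that share, a count of 3 does not set the complex apart.

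Of 10 genes of MHC class II presentation, 7 had a promoter peak in both libraries, beside 58.9% of all genes. When peaks below the median score of their list were left out, 4 did. The 58.9% counts all peaks and cannot be set beside that 4. The highest best peaks were at H2-DMa (mean percentile 99.6), Cd74 (74.7), H2-DMb1 (63.3) and H2-DMb2 (61.4), which encode the peptide loading subunits and the invariant chain. H2-DMa had 8 promoter peaks in replicate 1 and 7 in replicate 2, counted over all its annotated starts. Whether its best peak lies at the promoter of a neighbouring gene was not examined, so that peak cannot be assigned to H2-DMa alone. H2-Eb2 and H2-Oa had none in either library. At the genes of the classical chains the libraries differed. The best peak of H2-Aa was at percentile 67.7 in replicate 1 and 4.98 in replicate 2, and that of H2-Ab1 at 50.8 and 27.9. H2-Eb1 had 2 promoter peaks in replicate 1, the higher at percentile 58.4, and none in replicate 2. None of the shared promoter peaks held the full RFX consensus, beside 110 of the 12914 genes with promoter peaks in both libraries (0.852%). MHC class II promoters carry a related form of the X-box, which this search may miss. The lack of a match in so few genes therefore says nothing about Rfx5 sites. All but Cd74 lie close together on chromosome 17, so their windows share peaks.

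A list of 30 intraflagellar transport, BBSome and transition zone genes, which build the primary cilium, includes many known RFX targets. All 30 had a promoter peak in both libraries, beside 58.9% of all protein-coding genes. Ift27, Ift80, Ift140 and Ift122 ranked highest, each above percentile 99. In 3 of the 30, Dync2li1 (a dynein chain of retrograde transport), Arl6 (a small GTPase that recruits the BBSome) and Mks1 (a transition zone protein), a shared promoter peak held the full RFX consensus, as did 110 of the 12914 genes with promoter peaks in both libraries (0.852%). The 30 bases around each match are at chr17:84626445-84626474, chr16:59639152-59639181 and chr11:87853183-87853212, with the consensus match in capitals.
Dync2li1 promoter: gtgacgtcGTTGCCATGGCAACcgaggagc
Arl6 promoter: cgcgcggcGTTCCCTTGGCAACgggagctt
Mks1 promoter: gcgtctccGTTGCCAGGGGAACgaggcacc
All 3 stretches lie within 40 bp of a start site of their gene, and that of Arl6 overlaps an annotated UTR. The stretch at Dync2li1 also lies 65 bp from the start of a noncoding antisense gene. The consensus match at Arl6 contains TTGGCAAC, the letters in which the short NFI and RFX motifs overlap.

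**Figure D4:**
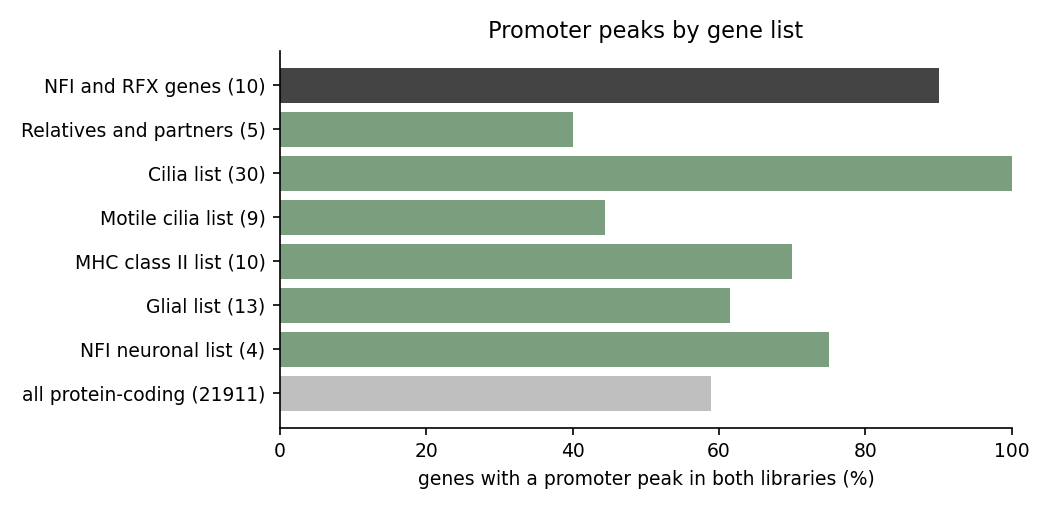
Percent of genes with a promoter peak in both libraries (x axis) for the 10 NFI and RFX genes, for 6 lists of partners and known target classes, and for all protein-coding genes (number of genes in brackets). The cilia list is at 100%, the 10 genes at 90%, and all genes at 58.9%.

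Genes of motile cilia, which need RFX factors together with Foxj1, had promoter peaks in both libraries in 4 of 9 matched genes. Among all protein-coding genes the share was 58.9%. The 4 were Dnali1, Rsph1, Foxj1 and Mcidas, Foxj1 and Mcidas being regulators of multiciliated cells. Gmnc, another regulator, and the axonemal dynein genes Dnah5, Dnah9 and Dnah11 had none in either library. The difference from the cilia list was not tested.

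Of 13 glial genes that are known to need NFI factors or mark the glial cells they support, 8 had a promoter peak in both libraries, near the share of all genes. Glul (glutamine synthetase), Sox9 (a glial fate regulator), Gfap (the astrocyte intermediate filament) and Fgfr3 ranked highest, with mean percentiles of 99.5, 90.3, 89.2 and 89.2. The water channel gene Aqp4, the folate enzyme gene Aldh1l1, the glutamate transporter gene Slc1a3 and Apcdd1 had none in either library. Of 4 neuronal genes linked to NFI, 3 had promoter peaks in both libraries, beside 58.9% of all genes. The 3 were Cntn2 and Cdh2, both cell adhesion genes, and Ephb1. Gabra6, a receptor gene of mature granule neurons, had none. No shared promoter peak in either list held the full NFI consensus. Of all 12914 genes with promoter peaks in both libraries, 22 (0.170%) had one that did. Lists this short would rarely hold a match, so its absence says nothing about NFI at these promoters.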

How the data were processed

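The authors deposited, for each library, a list of peaks with a score and a list of hotspots with a −log10 q-value (lowest 1.30, cap 100), on mm10. Each library's lists were made from its own filtered alignments with no pooling, per the README notes deposited beside the files. The aligner, caller, threshold and depth were not given in the sources used here. Repeated entries were removed (43 and 20), and the 19 autosomes, X and Y were used. Sharing meant an overlap of 1 bp or more. Python 3.11.15, numpy 2.4.6 and pysam 0.24.0 were used with GENCODE M21, and the overlap and motif code was tested on simulated data. Percentiles rank scores within a list. Members and gene lists were chosen with earlier results of these data known. All members were named, and from each list up to 4 genes with promoter peaks in both libraries by mean percentile, up to 4 with none in list order, and all with a full consensus. Dnai1 matched no symbol in the annotation. Alternatives varied the library, score, promoter width, start sites, overlap, flank and motif window. RefSeq start sites and leaving out promoters of other genes were chosen after seeing the data.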

Additional observations from a re-analysis of the deposited data

How the results depend on the processing

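No paired analysis was possible because there is 1 group. The median number of shared peaks per member was 25, and became 14.5 with peaks at or above the median score of their list, 11.5 in the gene body alone and 39.5 with 100 kb on each side, which follows from the fewer or more peaks counted. It was 23 with an overlap of 75 bp, 20 without peaks at promoters of other genes, and 30 to 33 with the peaks of 1 library alone. Peaks with a full consensus numbered 3, and 3 to 7 with 1 library left out: the 7 come from the list of replicate 2, that is, without replicate 1. The gene bodies alone held 0 in the list of replicate 1. The MHC class II genes with promoter peaks fell from 7 to 4 with peaks at or above the median score. Of the 10 members, 9 had promoter peaks in both libraries under most alternatives, but 10 did with promoters of 2.5 kb, where Rfx4 gained peaks, and 7 with the outermost start site alone, where Nfib and Nfic lost them. With RefSeq start sites 7 of the 9 members in that table did. The RefSeq start of Nfia, 190791 bp from the nearest GENCODE start, had no peak. The shared percentage ran from 67.4% to 76.7%. All 30 cilia genes kept promoter peaks under each alternative run. The number of glial genes was 7 to 9. With 2 libraries of unknown depth, a missing peak is one not called, not a closed site.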

Other observations

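Genes with the same promoter state, a window length within 10% and the nearest peak numbers in both libraries were sought for each member, as a description of likeness over 2 libraries. The nearest to Nfib (74 and 75 peaks) were Ppp2r2b with 74 and 76, Hivep3 with 78 and 75, and Phactr1 with 73 and 65. The nearest to Nfix (97 and 92) were Acot7 with 93 and 93, Rasa3 with 71 and 89, and 3110082I17Rik with 74 and 73. Nfic (87 and 91) was nearest to Sbno2 with 86 and 86, Ahdc1 and Bahcc1. Rfx4 (24 and 22), among genes with no promoter peak, was nearest to Lipc with 22 and 21, Lypd6b and Rgs22. Of the 175 genes of like window length without a promoter peak, the median number of shared peaks was 2, and 152 had fewer than the 17 of Rfx4.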
